A study of Arabidopsis thaliana with 20 samples.

Results

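The actin gene family of *Arabidopsis thaliana* is described here by its 8 well-known members, grouped by the tissues in which they mainly act. The vegetative genes are *ACT2* (AT3G18780), *ACT7* (AT5G09810) and *ACT8* (AT1G49240). The reproductive genes are *ACT1* (AT2G37620), *ACT3* (AT3G53750), *ACT4* (AT5G59370), *ACT11* (AT3G12110) and *ACT12* (AT3G46520). They were taken by name and not by any value in these data, though with earlier results of these data known. They make up 8 of the 26204 genes counted, which code for proteins and span 500 bp or more. All 8 passed the filter on low read numbers with every antibody, over the gene body and over 500 bp on either side of it.

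ChIP-seq with antibodies against H3K4me3, H3K36me3, H2A.Z, the linker histone H1 and total H3 was done on 10-day-old *h3.3kd* and WT seedlings, with 2 libraries per genotype and antibody and 20 in all. The *h3.3kd* plants carry mutant alleles of the H3.3 genes *HTR4* and *HTR8* and an artificial microRNA against the remaining H3.3 gene, *HTR5*, expressed from the *HTR5* promoter. The name covers more than 1 transgenic line, and the labels do not say which was used for ChIP. WT was Col-0, the ecotype of the mutant lines too, and seedlings of both genotypes grew on MS plates with glucose under long days. Nothing in the labels says that libraries of 1 genotype came from separate plantings, so the p-values below measure the spread between these libraries, which may be technical.

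Actin polymerises into the filaments along which plant cells move vesicles and organelles, and through which root hairs and pollen tubes extend. Vegetative actins serve leaves, stems and roots, with *ACT7* known for its response to auxin and *ACT2* for root hair growth. Reproductive actins are best known from pollen, and *ACT11* also from ovules and embryos. In plants, H3K4me3 and H3K36me3 mark the upstream part of transcribed genes. The histone variant H2A.Z sits near the start of many genes and along the bodies of genes that are little transcribed or that respond to the environment, and H1 binds the DNA between nucleosomes. H3.3 is the H3 variant that is built into chromatin outside replication, mainly in transcribed genes. Whole seedlings were used, so a mark present in few cells and a weak mark in many cells cannot be told apart. The files hold no transcript levels, and the tissue classes could therefore not be checked against expression.

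All 8 genes lie on the plus strand of TAIR10. *ACT2* spans chr3:6474710-6477204, *ACT7* chr5:3052062-3054691 and *ACT8* chr1:18215800-18218339. *ACT1* spans chr2:15778941-15781561, *ACT3* chr3:19915257-19917775, *ACT4* chr5:23949661-23951837, *ACT11* chr3:3857780-3860089 and *ACT12* chr3:17128211-17131466. They are 2177 bp (*ACT4*) to 3256 bp (*ACT12*) long and each has 1134 coding bases. Neighbouring genes reach into some of these windows. *RPP13*, on the other strand, covers 1167 bp of the *ACT12* body, and *AS1* covers 330 bp of the *ACT1* body. The 500 bp upstream of *ACT3* hold 310 bp of AT3G53740, whereas no other gene reaches into the bodies or upstream windows of the vegetative genes. Downstream, all members but *ACT7* have between 44 and 500 bp inside a neighbour.

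The coding regions are close copies, which matters because the authors kept only reads that map to a single place. Identity over the coding bases was highest, at 91%, between *ACT2* and *ACT8*. It was 90.5% between *ACT1* and *ACT3* and 87.9% between *ACT4* and *ACT12*. All vegetative pairs had 82.5 to 91%, all reproductive pairs 82.1 to 90.5%, and pairs of a vegetative and a reproductive gene 78.3 to 83.8%. The ranges within and between classes thus overlap. The stretch below is shown because it is the longest over which 2 members are identical, longer than a read of 50 bases. It holds the last 4 bases of an intron and coding bases 455 to 512, from the TAIR10.1 assembly of RefSeq, plus strand, 5′ to 3′, with capitals marking differences from *ACT4*.
ACT2, chr3:6476063-6476124: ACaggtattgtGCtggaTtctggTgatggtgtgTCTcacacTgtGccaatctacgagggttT
ACT7, chr5:3053439-3053500: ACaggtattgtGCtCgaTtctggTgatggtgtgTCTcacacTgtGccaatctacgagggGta
ACT8, chr1:18217157-18217218: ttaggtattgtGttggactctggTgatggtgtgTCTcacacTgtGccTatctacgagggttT
ACT1, chr2:15780447-15780508: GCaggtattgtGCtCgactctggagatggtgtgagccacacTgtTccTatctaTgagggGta
ACT3, chr3:19916595-19916656: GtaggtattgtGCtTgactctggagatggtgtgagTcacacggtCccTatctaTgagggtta
ACT4, chr5:23950798-23950859: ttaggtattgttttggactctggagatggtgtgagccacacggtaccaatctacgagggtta
ACT11, chr3:3858833-3858894: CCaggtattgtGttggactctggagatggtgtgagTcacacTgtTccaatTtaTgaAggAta
ACT12, chr3:17129198-17129259: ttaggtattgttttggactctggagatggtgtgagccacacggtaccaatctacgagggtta
*ACT4* and *ACT12* are identical over these 62 bases, and the other 6 genes differ from them at 8 (*ACT3*) to 13 (*ACT7*) bases. In the 20 libraries together, no read started at the 13 positions from which a read would fit inside the stretch in *ACT4* and none in *ACT12*, against 83 (*ACT8*) to 141 (*ACT11*) reads in the other 6. Such positions are few. Between 93.2% (*ACT2*) and 99.3% (*ACT7*) of body positions gave a 50-base sequence found nowhere else within 2 mismatches, and the flanks were unique throughout except for 2 positions downstream of *ACT12* and 121 positions downstream of *ACT8*.

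Libraries held 8688846 to 68090065 reads. The H3 library of WT replicate 2 was the shallowest, and over the flanks it stood apart from the other H3 libraries at the actin genes. It gave the highest H3 level upstream of 8 of 8 members and downstream of 5, but over only 4 of 8 bodies. The second replicates of H3K4me3 and H2A.Z in both genotypes were deposited without strand and without organelle reads. The mutant alleles were looked for in the reads, as the longest run of positions at which no *h3.3kd* library had a read. At *HTR4* this run had 46 positions, and the 10 WT libraries held 238 reads there, 4 to 80 each. At *HTR8* it had 95 positions, and the WT libraries held 499 reads there, 12 to 171 each. The 0 reads of the 10 *h3.3kd* libraries follow from this choice, and no such run was sought in WT. Values below are log2 of the antibody's reads over H3 reads, each per 1000000 reads with 0.1 added, with H3 from the library that shares genotype and replicate number. H3 itself is given as log2 of reads per kb and 1000000 reads. In each pair of values, replicate 1 comes before replicate 2.

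Over the gene bodies, H3K4me3 did not divide the family by class. The reproductive genes *ACT4* and *ACT12* were the lowest pair in 4 of 4 libraries, and the other 3 reproductive genes lay among the vegetative ones. *ACT4* gave -0.37 and -0.73 in *h3.3kd* against -0.42 and -0.15 in WT. *ACT12* gave -0.20 and -0.02 in *h3.3kd* against -0.15 and -0.30 in WT. Only 13.5% of all genes had a lower WT mean than *ACT4* and 15.9% a lower one than *ACT12*.

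Among the vegetative genes, *ACT2* gave 0.68 and 0.71 in *h3.3kd* against 0.70 and 0.53 in WT. *ACT7* gave 0.67 and 0.92 in *h3.3kd* against 0.57 and 0.58 in WT. *ACT8* gave 0.40 and 0.62 in *h3.3kd* against 0.26 and 0.78 in WT. The median of all genes in WT was 0.40, and all of these values stood above it but those of *ACT8* in replicate 1. The reproductive gene *ACT11*, the highest member in 2 of 4 libraries, gave 0.67 and 1.15 in *h3.3kd* against 0.71 and 0.76 in WT. *ACT1* gave 0.43 and 0.67 in *h3.3kd* against 0.39 and 0.58 in WT, and *ACT3* gave 0.45 and 0.67 in *h3.3kd* against 0.06 and 0.83 in WT. In the WT order *ACT11*, *ACT2*, *ACT7*, *ACT8*, *ACT1*, *ACT3*, *ACT12*, *ACT4*, the only neighbours whose libraries did not overlap were *ACT11* with *ACT2* and *ACT3* with *ACT12*.

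H3K36me3 gave the same division, with *ACT4* and *ACT12* again the lowest pair in 4 of 4 libraries. *ACT4* gave -1.15 and -0.57 in *h3.3kd* against -0.94 and -0.29 in WT. *ACT12* gave -1.09 and -0.34 in *h3.3kd* against -0.59 and -0.43 in WT. Every one of these values was below the median of all genes, 0.25. The WT means of the other 6 members lay between 0.45 (*ACT1*) and 0.69 (*ACT2*), and in the WT order only *ACT1* and *ACT12* were neighbours without overlap.

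The vegetative genes gave 1.18 and 0.57 (*ACT2*), 1.11 and 0.72 (*ACT7*) and 0.78 and 0.52 (*ACT8*) in *h3.3kd*. In WT they gave 0.78 and 0.59 (*ACT2*), 0.60 and 0.61 (*ACT7*) and 0.50 and 0.75 (*ACT8*). Replicate 1 of *h3.3kd* was higher than replicate 2 at each of the 3. *ACT11* gave 1.18 and 0.79 in *h3.3kd* against 0.72 and 0.46 in WT. *ACT1*, with 0.70 and 0.40 in *h3.3kd* against 0.58 and 0.33 in WT, and *ACT3*, with 0.53 and 0.25 in *h3.3kd* against 0.45 and 0.60 in WT, were likewise unlike *ACT4* and *ACT12*.

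Over the whole gene body, H2A.Z did divide the family by class. All 3 vegetative genes lay below all 5 reproductive genes in 4 of 4 libraries. Over the first 500 bp of the body alone the classes overlapped in 3 of 4 libraries, with class differences of medians of -0.14 and -0.71 in *h3.3kd* against -0.21 and -1.16 in WT. Over the whole body, *ACT7* was the lowest member in WT, with -0.51 and -0.16 in *h3.3kd* against -0.87 and -0.59 in WT, and only 6% of all genes were lower in WT. *ACT2* gave -0.24 and -0.30 in *h3.3kd* against -0.54 and -0.38 in WT. *ACT8* gave -0.18 and -0.07 in *h3.3kd* against -0.09 and 0.02 in WT, the highest of its class. In WT, *ACT8*, *ACT2* and *ACT7* followed each other with no overlap between neighbours.

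The reproductive genes were all above 0 with the H2A.Z antibody. *ACT4* gave 0.66 and 0.60 in *h3.3kd* against 0.67 and 1.01 in WT. *ACT11* gave 0.39 and 0.71 in *h3.3kd* against 0.89 and 0.57 in WT. *ACT12* gave 0.65 and 0.75 in *h3.3kd* against 0.67 and 0.62 in WT. These 3 stood above the median of all genes, 0.32, in every library. *ACT1* gave 0.17 and 0.18 in *h3.3kd* against 0.54 and 0.38 in WT, and *ACT3* gave 0.30 and 0.20 in *h3.3kd* against 0.15 and 0.51 in WT. *ACT11*, with high H3K4me3 and high H2A.Z, and *ACT4*, with low H3K4me3 and high H2A.Z, were thus alike in H2A.Z and unlike in H3K4me3.

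H1 was lowest over *ACT2* and *ACT7*, in 4 of 4 libraries. *ACT7* gave -0.57 and -0.30 in *h3.3kd* against -0.69 and -0.29 in WT, and *ACT2* gave -0.41 and -0.42 in *h3.3kd* against -0.61 and -0.31 in WT. In WT 6.6% of all genes lay below *ACT7* and 7.5% below *ACT2*. *ACT8* varied widely between the WT replicates, with -0.21 and -0.16 in *h3.3kd* against -0.51 and 0.20 in WT. The reproductive genes ranged from -0.32 (*ACT11*) to 0.22 (*ACT4*) in *h3.3kd* and from -0.16 (*ACT12*) to 0.28 (*ACT3*) in WT, around the median of all genes, 0.01. In WT no neighbours in the H1 order were free of overlap.

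Total H3 was similar over all 8 bodies. The vegetative genes gave 3.26 and 3.61 (*ACT2*), 3.25 and 3.41 (*ACT7*) and 3.46 and 3.51 (*ACT8*) in *h3.3kd*, against 3.19 and 3.74, 3.31 and 3.71, and 3.42 and 3.28 in WT in the same gene order. The reproductive genes ranged from 3.23 to 3.50 in *h3.3kd* and from 3.11 to 3.59 in WT. The median of all genes was 3.25. The WT mean of *ACT7* ranked above 96.1% and that of *ACT2* above 92.5% of all genes, with their higher values in replicate 2. No neighbours in the WT order were free of overlap.

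**Figure D1:**
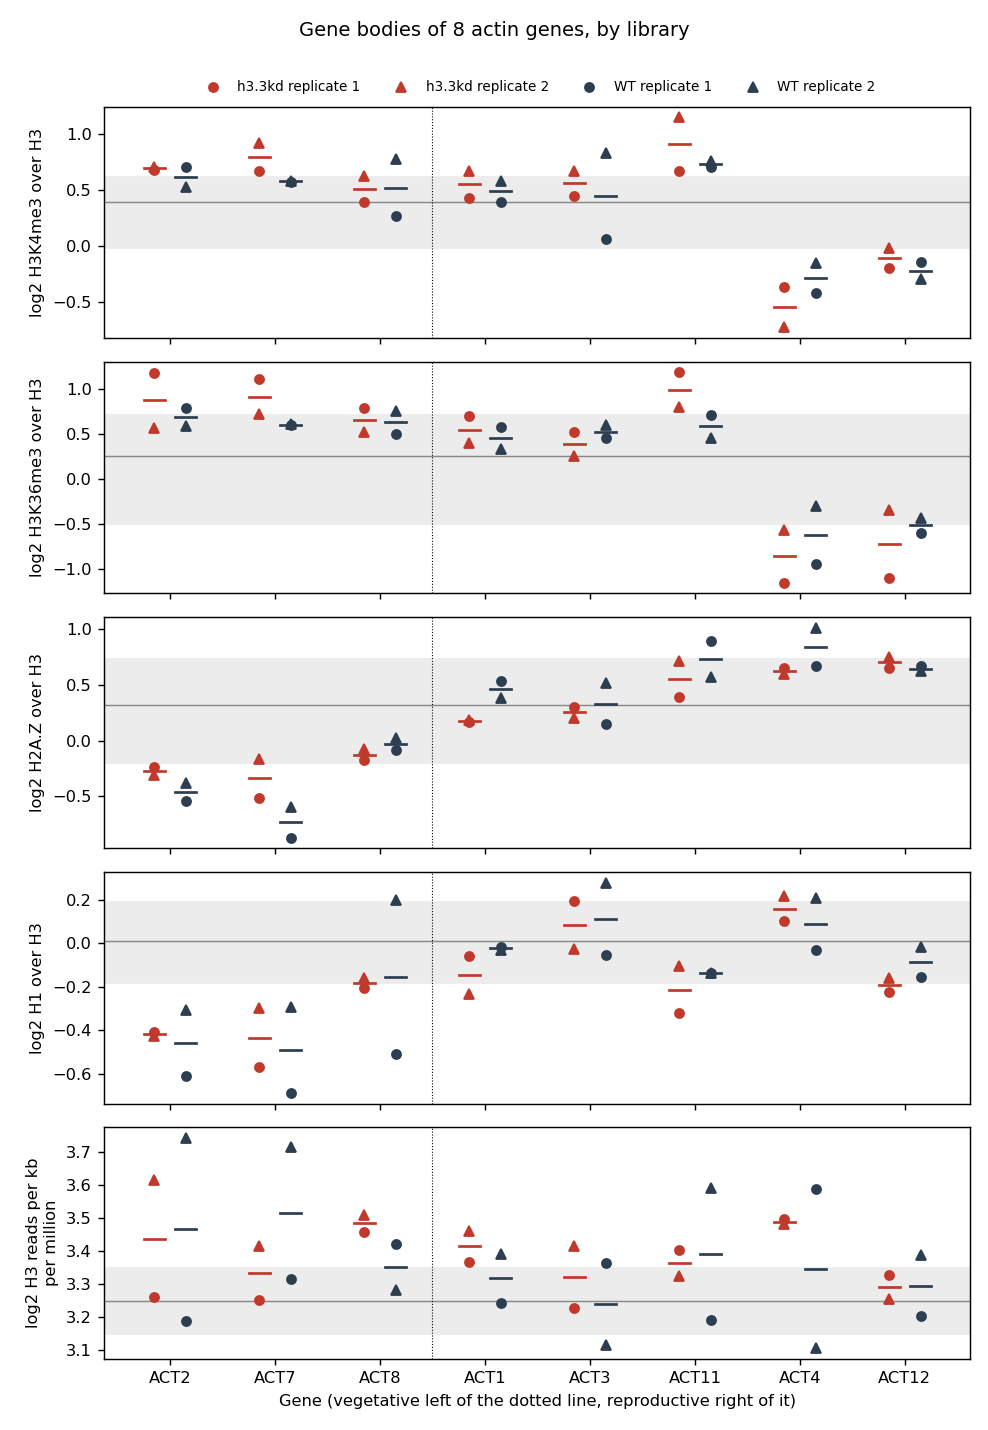
Values over the gene body by gene, in 1 panel per antibody (log2 over H3, and log2 reads per kb and 1000000 reads for H3). Red symbols are *h3.3kd* and dark symbols WT, circles replicate 1 and triangles replicate 2, short bars the mean of 2 libraries, and the grey line and band the median and quartiles of all genes. *ACT4* and *ACT12* sit lowest for H3K4me3 and H3K36me3, and *ACT2*, *ACT7* and *ACT8* sit lowest for H2A.Z.

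The class difference, the median of the 3 vegetative genes minus that of the 5 reproductive genes, is given by library as a description, since genes are not replicates of a class. For H2A.Z it was -0.63 and -0.76 in *h3.3kd* against -1.21 and -0.95 in WT. For H1 it was -0.35 and -0.19 in *h3.3kd* against -0.56 and -0.28 in WT. Both had the same sign in all 4 libraries. For H1 this depended on the denominator, since without H3 the WT values were -0.60 and 0.06. The change of the class difference between genotypes was not tested. For H3K36me3 it was 0.58 and 0.31 in *h3.3kd* against 0.15 and 0.28 in WT. For H3K4me3 it was 0.24 and 0.03 in *h3.3kd* against 0.51 and 0.00 in WT, and for H3 it was -0.11 and 0.10 in *h3.3kd* against 0.07 and 0.33 in WT.

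The values of *ACT12* were also taken without the bases shared with its neighbour. Over the 2089 bp of its body outside *RPP13*, H3K4me3 was -0.29 and -0.25 in *h3.3kd* against -0.26 and -0.33 in WT. H3K36me3 there was -1.26 and -0.55 in *h3.3kd* against -0.77 and -0.55 in WT. H2A.Z there was 0.70 and 0.84 in *h3.3kd* against 0.82 and 0.92 in WT. The low H3K4me3 and H3K36me3 and the high H2A.Z of this gene were therefore as marked there as over the whole body.

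Along the gene, H3K4me3 was concentrated in the upstream part of 6 of the members. Each of the 8 genes has an intron between its start and its first coding base in at least 1 annotated transcript. In WT, the body was cut into 20 bins and the bin with most H3K4me3 over H3 lay wholly inside this leader intron in all 3 vegetative genes. It was 624 to 748 bp from the start of *ACT2* (1.92, intron 372 to 814 bp), 395 to 525 bp in *ACT7* (1.92, intron 201 to 740 bp) and 381 to 507 bp in *ACT8* (1.93, intron 269 to 728 bp). In *ACT1* it was at 655 to 785 bp (1.43), also inside the intron, which spans 387 to 809 bp. In *ACT3* (126 to 251 bp, 1.25) and *ACT11* (116 to 230 bp, 1.70) it overlapped the intron in part.

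*ACT4* and *ACT12* had no such peak. Their highest bins were 1633 to 1741 bp from the start of *ACT4* (0.46) and 3093 to 3255 bp from the start of *ACT12* (0.63), which lies within the bases shared with *RPP13*. In *h3.3kd* the highest bins were unmoved in *ACT7* (1.61), *ACT8* (1.54) and *ACT11* (1.95). In *ACT2* it lay at 250 to 373 bp (1.66), with only 2 of its 124 bp in the leader intron, unlike in WT. The highest bins lay at 524 to 654 bp in *ACT1* (2.39) and 252 to 377 bp in *ACT3* (1.83), both inside the leader intron. In *ACT4* and *ACT12* they lay outside it and reached 0.11 and 0.50.

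The mean of the first 5 bins minus that of the last 5 gives the same picture per library. For H3K4me3 it was 1.46 and 1.46 in *h3.3kd* against 1.74 and 1.36 in WT at *ACT2*. It was 1.21 and 1.46 in *h3.3kd* against 1.79 and 1.98 in WT at *ACT8*. The steepest falls in WT were in the vegetative genes and in *ACT11*, which had 0.73 and 0.61 in *h3.3kd* against 1.37 and 1.90 in WT. *ACT7* had 1.39 and 0.88 in *h3.3kd* against 1.91 and 1.52 in WT. The H3 level moved with these values. Its own difference between the first and last 5 bins was 0.65 and 0.98 in *h3.3kd* against 0.08 and -0.21 in WT at *ACT11*, and 0.09 and 0.15 in *h3.3kd* against -0.32 and -0.26 in WT at *ACT8*. The part of H3 in these slopes was not tested. *ACT4* had 0.29 and -0.45 in *h3.3kd* against 0.23 and 0.37 in WT. *ACT12* had -0.42 and -0.65 in *h3.3kd* against -0.25 and -0.15 in WT. The last 5 bins of *ACT12* lie wholly within the bases shared with *RPP13*, so a fall along *ACT12* alone was not measured.

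H2A.Z was also higher in the first 5 than in the last 5 bins in WT, in every member and both libraries, by 0.01 (*ACT7*, replicate 2) to 1.47 (*ACT2*, replicate 1). All of the last 5 bins of *ACT12*, and 330 bp of those of *ACT1*, lie in a neighbouring gene. The WT bin with most H2A.Z was at 1.78 in *ACT11*, 1.41 in *ACT4*, 1.27 in *ACT12* and 1.15 in *ACT8*, but at 0.27 in *ACT2* and 0.13 in *ACT7*. *ACT8* thus carried H2A.Z near its start, with 0.62 over the first 5 bins in WT, although its body was below the median of all genes. Over its first 500 bp the WT mean was 0.69, the same as the median of all genes there, 0.69. In *ACT7* the H2A.Z difference between first and last bins was -0.47 and -0.86 in *h3.3kd* against 0.89 and 0.01 in WT. The H3 level at *ACT7* moved with it, since its own difference between these bins was 0.88 and 1.29 in *h3.3kd* against -0.22 and 0.61 in WT, and the part of H3 in the result was not tested.

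**Figure D2:**
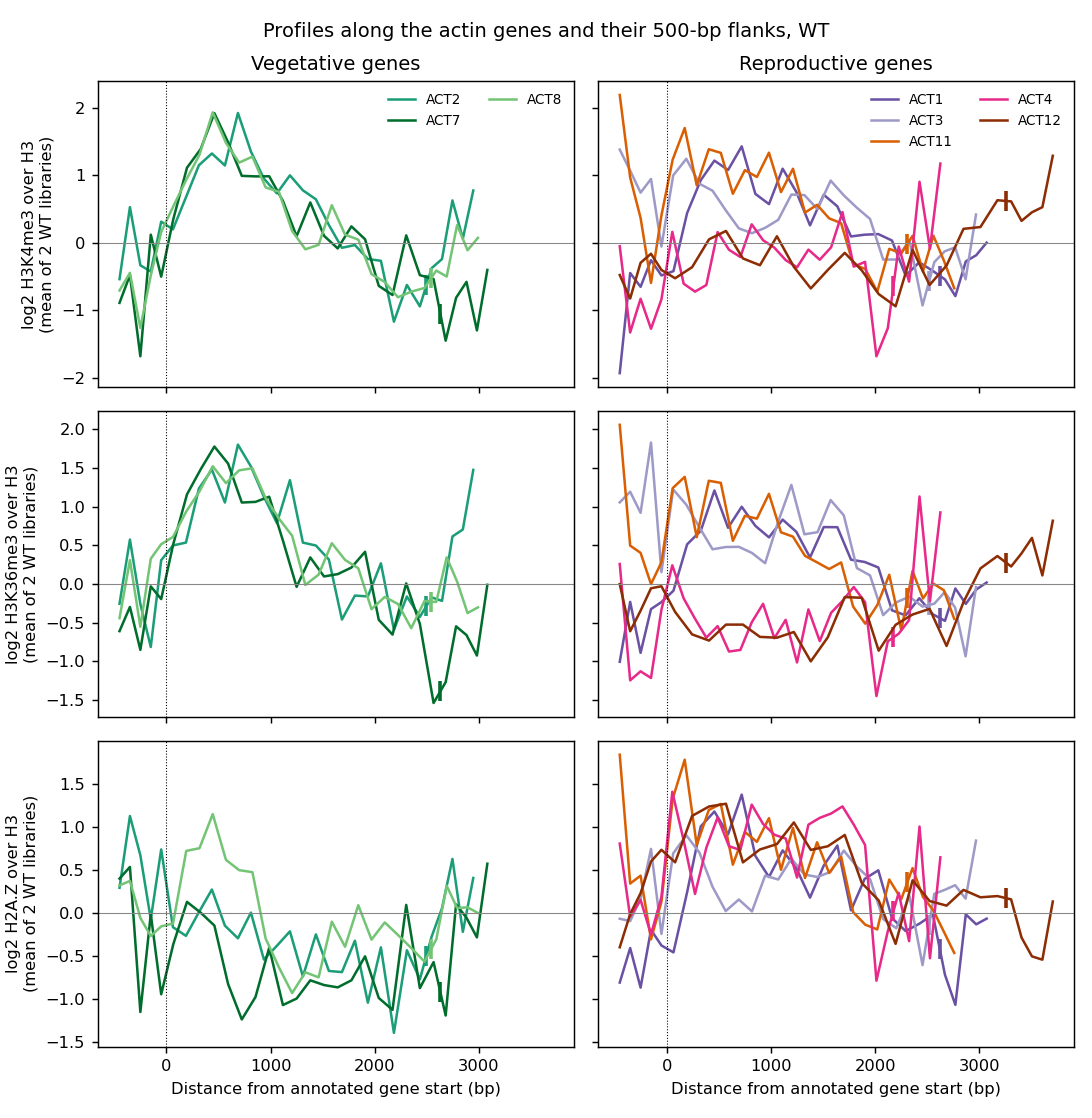
H3K4me3, H3K36me3 and H2A.Z over H3 (log2) in WT against distance from the gene start in bp, from 500 bp upstream to 500 bp past the end, as means of 2 libraries, with vegetative genes on the left and reproductive genes on the right. Ticks mark gene ends and the dotted line the start; the H3K4me3 maxima near 1.9 of the vegetative genes lie downstream of the start, and *ACT4* and *ACT12* have none.

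Upstream of the start, *ACT3* and *ACT11* stood apart from the other members. H3K4me3 was 1.23 and 1.77 in *h3.3kd* against 1.22 and 0.79 in WT upstream of *ACT3*, and 1.16 and 1.38 in *h3.3kd* against 0.85 and 0.70 in WT upstream of *ACT11*. In WT these ranked above 94.4 and 92.3% of all genes. H3K36me3 was 1.17 and 1.01 in *h3.3kd* against 1.10 and 1.09 in WT at *ACT3*, and 1.08 and 0.97 in *h3.3kd* against 0.73 and 0.63 in WT at *ACT11*. The *ACT3* window holds 310 bp and the *ACT11* window 40 bp of a gene on the other strand, and the part of those genes in the signal was not tested. Upstream of the other 6 genes, H3K4me3 ranged from -0.65 to 0.55 in *h3.3kd* and from -1.46 to 0.15 in WT.

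Between genotypes, no actin gene changed by the test across all genes. Limma on 2 *h3.3kd* and 2 WT libraries, with Benjamini-Hochberg adjustment over all windows and a threshold of 0.05, called 0 of the 24 member windows for each of the 5 antibodies. Over all genes it called 0.145% of 77901 windows for H3K4me3 and 0.054% of 77769 for H3K36me3. It called 0% for H2A.Z, H1 and H3, where 4752, 2105 and 2729 windows had an unadjusted p under 0.05 and limma-voom on read numbers called 0, 0 and 1 windows. Without adjustment, 10 of the 120 member values had a limma p under 0.05. Of the 24 windows per antibody, these were 5 for H3K4me3, 3 for H3K36me3, 1 each for H2A.Z and H3 and 0 for H1. Over all genes, 4898 of 77901 windows had such a p for H3K4me3 and 2867 of 77769 for H3K36me3. The totals for H2A.Z, H1 and H3 given above are of 77919, 77905 and 77924 windows. In simulated libraries of this size, limma recovered 0 to 21% of log2 changes of 1, so that 2-fold changes were mostly missed there. It recovered 31 to 97% of log2 changes of 2. The simulation pooled bodies with flanks, gave every window the same extra spread between replicates and planted changes in a small share of windows. It held no outlying library and was not made for the actin genes, so what could be detected at them was not measured.

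The body values differed least. The median difference over the 8 bodies, *h3.3kd* minus WT, was 0.10 for H3K4me3, 0.06 for H3K36me3, -0.09 for H2A.Z, -0.03 for H1 and 0.04 for H3. The medians of all genes were -0.04 for H3K4me3, -0.07 for H3K36me3, -0.06 for H2A.Z, -0.04 for H1 and 0.09 for H3. The SE of a single gene's body difference was 0.22 to 0.50 for H3K4me3 and 0.23 to 0.32 for H2A.Z. The 2 *h3.3kd* libraries lay beyond both WT libraries at 1 of 8 bodies for H3K4me3, 2 for H3K36me3, 4 for H2A.Z, 2 for H1 and 1 for H3. Over all gene bodies the share was 30.4, 25.1, 39.8, 26.8 and 31.6% in the same order, so that the actin genes were near the background. The 4 bodies without overlap for H2A.Z went both ways. The values of *ACT2* and *ACT7* were higher in *h3.3kd*, and those of *ACT1* and *ACT4* lower.

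Over the flanks, the median differences of H3K4me3, H2A.Z and H3 were farther from 0 than over the bodies. Upstream, the median member difference was 0.42 for H3K4me3 and 0.29 for H2A.Z, against 0.31 and 0.32 for all genes. Downstream it was 0.55 for H3K4me3 and 0.48 for H2A.Z, against 0.12 and 0.22 for all genes. H3 ran the other way, with -0.30 upstream and -0.42 downstream, against -0.32 and -0.15 for all genes. These medians of all genes rested on WT replicate 2. Without it they were -0.09 upstream and -0.12 downstream for H3K4me3, 0.02 and 0.09 for H2A.Z, and -0.04 and 0.00 for H3. Without H3 as the denominator they were 0.00 and -0.01 for H3K4me3 and -0.02 and 0.03 for H2A.Z. Libraries did not overlap upstream of 3 of 8 genes and downstream of 4 of 8 for H3K4me3, against 29.8 and 26.6% of all genes. For H2A.Z it was 1 upstream and 4 downstream, against 35.4 and 37.7%, and for H3 2 and 4, against 32 and 31.9%. For H3K36me3 it was 5 upstream and 2 downstream, against 26.6 and 29.3%, and for H1 1 and 4, against 27.6 and 27.9%.

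**Figure D3:**
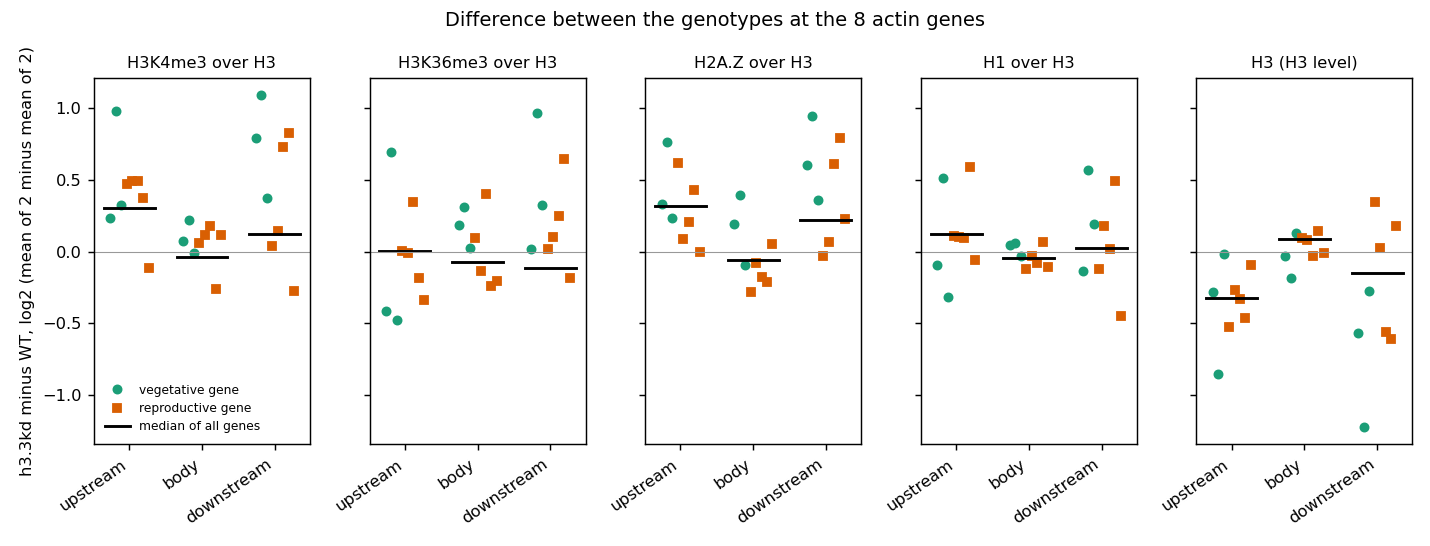
Difference of *h3.3kd* minus WT (log2) by antibody and window, with green circles for vegetative genes, orange squares for reproductive genes and black bars for the median of all genes. No point passed limma's threshold; the downstream H3 values reach -1.23 at *ACT7* and the downstream H3K4me3 values 1.09 at the same gene.

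Downstream of *ACT4*, H3K4me3 was 0.97 and 1.47 in *h3.3kd* against 0.31 and 0.47 in WT. This had the smallest p of any member window (difference 0.83, SE 0.22, limma adjusted p = 0.139). H3K36me3 there was 0.95 and 0.82 in *h3.3kd* against 0.13 and 0.34 in WT, and H2A.Z was 0.75 and 1.27 in *h3.3kd* against 0.27 and 0.16 in WT. The libraries of the genotypes did not overlap for any of these 3. They share their H3 libraries, in which this window had 2.70 and 2.25 in *h3.3kd* against 2.94 and 3.23 in WT. Of its 500 bp, 206 belong to *MBD6*, a gene for a methyl-CpG-binding domain protein. Without H3 as the denominator the H3K4me3 difference was 0.22, and without WT replicate 2 it was 0.92 (limma adjusted p = 0.279).

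*ACT7* had the largest H3 difference of the members. Downstream, H3 was 2.23 and 2.04 in *h3.3kd* against 2.78 and 3.94 in WT (difference -1.23, SE 0.42, limma adjusted p = 0.949). WT replicate 2 was more than 1 log2 unit above WT replicate 1 there, and without it the difference was -0.64. H3K4me3 over H3 downstream was -0.27 and 0.33 in *h3.3kd* against -0.42 and -1.70 in WT, and upstream it was -0.11 and 0.55 in *h3.3kd* against -0.24 and -1.28 in WT. The low WT values are those of replicate 2 in both windows. The differences of 1.09 and 0.98 became 0.45 and 0.46 without that replicate, and -0.13 and 0.13 without H3 as the denominator.

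Downstream of *ACT2* and *ACT11*, as at *ACT7*, WT replicate 2 was the lowest library for H3K4me3 and the highest for H3. Unlike at *ACT7*, the H3K4me3 libraries of the genotypes overlapped at *ACT2*. H3K4me3 was 1.17 and 0.51 in *h3.3kd* against 0.63 and -0.54 in WT at *ACT2*, and 0.09 and 0.70 in *h3.3kd* against -0.13 and -0.54 in WT at *ACT11*. H3 was 1.88 and 2.33 in *h3.3kd* against 1.87 and 3.46 in WT at *ACT2*, and 2.78 and 2.33 in *h3.3kd* against 2.83 and 3.40 in WT at *ACT11*. The H3K4me3 differences of 0.79 (limma adjusted p = 0.373) and 0.73 (limma adjusted p = 0.636) were 0.21 and 0.53 without WT replicate 2. Without H3 as the denominator they were 0.23 and 0.17. At *ACT2* the H3 difference of -0.57 turned to 0.23 without that replicate.

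**Figure D4:**
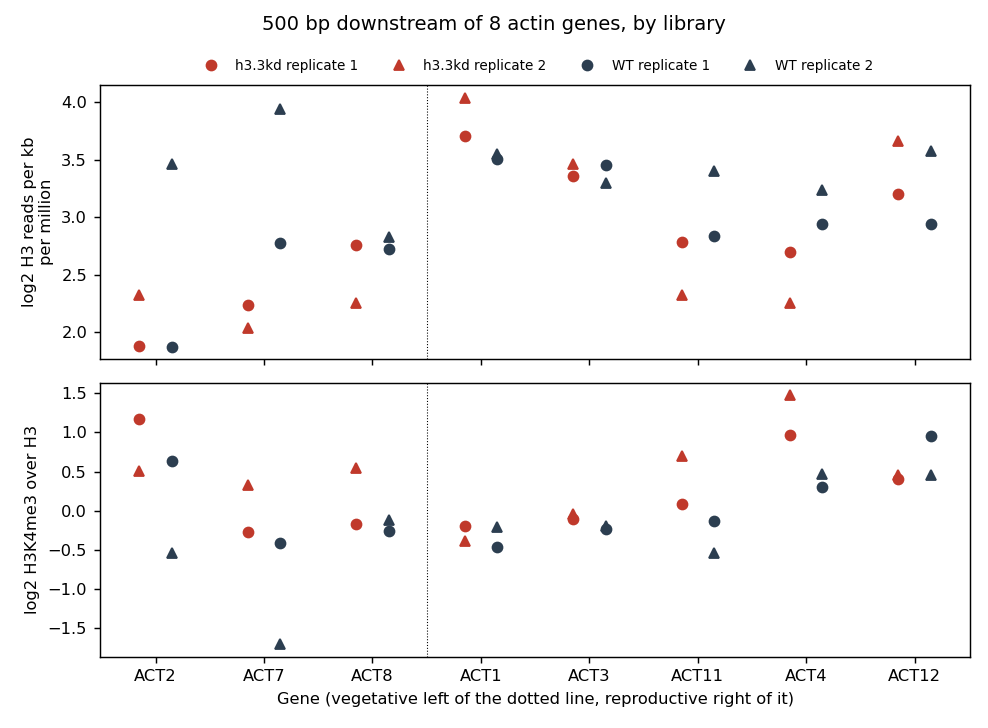
H3 level (log2 reads per kb and 1000000 reads) and H3K4me3 over H3 (log2) in the 500 bp downstream of each gene, by library, with *h3.3kd* in red and WT in dark, circles for replicate 1 and triangles for replicate 2. The WT triangle of H3 is the highest of the 4 libraries at 5 of the 8 genes, reaching 3.94 at *ACT7*, where the WT triangle of H3K4me3 over H3 is the lowest at -1.70.

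Other genes of the actin system were taken from a list of 39. At least 38 were tested in each window, and none was called between *h3.3kd* and WT with any antibody, upward or downward. The lowest adjusted p was for H3K4me3 downstream of *ARP3*, a subunit of the complex that branches filaments, with 1.45 and 1.12 in *h3.3kd* against 0.74 and -0.66 in WT (limma adjusted p = 0.0502). The next comparison at this gene, H3K36me3, had 1.52 and 1.18 in *h3.3kd* against 0.58 and -0.31 in WT (limma adjusted p = 0.0512), and H3 there was 1.72 and 1.89 in *h3.3kd* against 2.28 and 3.58 in WT. Over gene bodies the median difference of the list was 0.01 for H3K4me3 and 0.00 for H3K36me3 and H2A.Z.

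The profilins, which bind actin monomers, have vegetative (*PRF1*, *PRF2*, *PRF3*) and pollen (*PRF4*, *PRF5*) members as the actins do. H3K4me3 over the bodies of *PRF1*, *PRF2* and *PRF3* averaged 0.81, 0.81 and 0.99 in WT, above 90.9, 90.7 and 97.0% of all genes. *PRF4* and *PRF5* averaged -0.04 and -0.19. H3K36me3 divided them more sharply, with WT means of 0.97, 0.94 and 0.98 in *PRF1*, *PRF2* and *PRF3* and of -0.43 and -0.62 in *PRF4* and *PRF5*. The pollen profilins were thus low in both marks, as were *ACT4* and *ACT12* and unlike *ACT1*, *ACT3* and *ACT11*.

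H2A.Z did not divide the profilins by class. *PRF3* gave 0.63 and 0.56 in *h3.3kd* against 0.92 and 0.81 in WT, close to *PRF4* with 0.74 and 0.78 in *h3.3kd* against 0.68 and 1.10 in WT. *PRF5* gave 0.63 and 0.41 in *h3.3kd* against 0.76 and 0.57 in WT. *PRF1* and *PRF2* were lower, with WT means of -0.05 and -0.39. *PRF3* thus combined high H3K4me3 with high H2A.Z, like *ACT11* and unlike *ACT2*, *ACT7* and *ACT8*.

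Among the 11 actin-depolymerising factors (ADF), a family of actin-binding proteins, 5 were above and 6 below the median of all genes for H3K4me3, H3K36me3 and H2A.Z alike. *ADF7*, known from pollen, had the lowest H3K36me3 of the list, with -0.74 and -0.62 in *h3.3kd* against -0.68 and -0.69 in WT. Its H2A.Z was 0.79 and 0.53 in *h3.3kd* against 1.00 and 0.45 in WT. *FIM3*, which encodes a filament-bundling fimbrin, had the lowest H3K4me3 (-0.53 and -1.27 in *h3.3kd* against -0.13 and -0.92 in WT), the highest H1 and the lowest H3. *VLN4*, a villin that bundles filaments, had the lowest H2A.Z, with means of -0.75 in *h3.3kd* and -1.04 in WT, below *ACT7*. The highest H2A.Z was that of *ACT9*, annotated as a diverged actin gene or pseudogene, with a WT mean of 1.08. All 3 actin-like genes of the list, of which only *ACT9* is annotated in this way, were above the median of all genes for H2A.Z and below it for H3K4me3 and H3K36me3. The genes of the 6 nuclear actin-related proteins showed the reverse for H3K36me3 and H2A.Z, with 6 above and 6 below the median. Across the list, *ADF5* had the lowest H1 (-0.64 in WT) and *CAP1*, which encodes a protein that recycles actin monomers, the highest H3 (3.42 in WT).

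**Figure D5:**
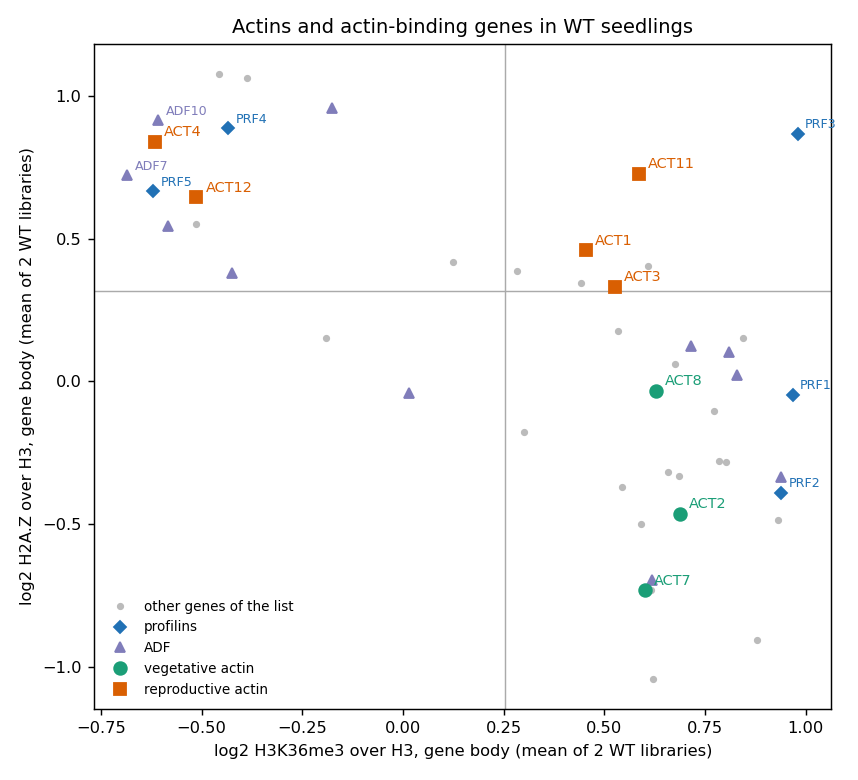
H3K36me3 over H3 against H2A.Z over H3 (log2) over the gene body in WT, means of 2 libraries, for the actins and the other listed genes, with grey lines at the medians of all genes. *ACT4*, *ACT12*, *PRF4* and *PRF5* lie together with low H3K36me3 and high H2A.Z, whereas *ACT2* and *ACT7* lie at high H3K36me3 and low H2A.Z. *ADF10*, a pollen gene that was labelled after its values were seen, lies with the former. Other pollen genes of the list, such as *FIM5*, were not labelled, so no trait of pollen genes is read from this.

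Finally, the genes whose body levels were most like each class were looked up. Likeness was the root mean square difference of standardised log2 densities over the 20 libraries, among 26043 genes, and is a description. The nearest to the mean of the vegetative genes were AT3G62870 (0.155), AT3G47080 (0.155) and *RPK1*, a receptor-like kinase gene (0.159), against a median of 0.929 for all genes. *ACT2*, *ACT7* and *ACT8* themselves were at 0.182, 0.242 and 0.362 from their mean. The nearest to the mean of the reproductive genes were *EMB1290* (0.179), *NRPB9A*, a gene for an RNA polymerase subunit (0.188), and *HTH* (0.197), against a median of 0.776. The 5 reproductive genes lay farther from their own mean, at 0.346 (*ACT1*) to 0.694 (*ACT4*).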

How the data were processed

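The deposited files list positions of single reads, which the authors made by aligning ChIP-seq reads with Bowtie to TAIR10 with up to 2 mismatches, keeping reads that map to 1 place and removing reads at the same coordinates. In 4 of the 20 libraries (replicate 2 of H3K4me3 and of H2A.Z) strand is not listed, so that the 2 reads a position can hold cannot be told apart by strand. In the other 16 libraries a position holds at most 1 read per strand. Replicates were not pooled. The 8 actins and the gene lists were chosen with earlier results of these data known.

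The leftmost base of each read gave its place in TAIR10.1, and reads were counted over gene bodies and flanks of 500 bp of protein-coding genes of at least 500 bp, then scaled to 1000000 reads. A window was kept if it averaged 10 or more reads with the antibody and with H3. A pseudocount of 0.1 was added, so that differences of windows with few reads are understated on the log2 scale. For each antibody, 2 *h3.3kd* libraries were tested against 2 of WT by limma 3.58.1 in R 4.3.3 (lmFit, then eBayes with trend), adjusting p-values by Benjamini-Hochberg and calling those under 0.05. The fit was tested on simulated data. In the simulation 1.59 to 5.88% of calls were false. The read counts were also fitted with limma-voom as an alternative, and no negative binomial count model was fitted. Uniqueness was searched with bwa 0.7.19, allowing 2 mismatches. Counting and plots used Python 3.11.15 with numpy 2.4.6, pandas 2.3.3 and matplotlib 3.10.9.

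Named genes were the 8 actins, *HTR4* and *HTR8*, the 5 profilins, list genes that were called or had the highest or lowest WT body level, and the 3 genes nearest to each class. *ARP3*, *ADF10*, *ACT9* and genes that overlap a window were named after their values or positions were seen. Alternatives were no H3 denominator, H3 replicate 1 as denominator, other pseudocounts, filters and flanks, 1 read per position, shifted reads, limma-voom, a replicate block and leaving out each library.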

Additional observations from a re-analysis of the deposited data

How the results depend on the processing

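None of the 120 member windows was called in the comparison as reported, and counts over all genes moved with the processing. H3K4me3 had 113 called windows and H3K36me3 42. Without the H3 denominator the counts were 2 and 0, with a pseudocount of 0.5 they were 291 and 12, with no filter on low reads 0 and 0 (12 for H3), with flanks of 1000 bp 183 and 17 (2 for H3) and with limma-voom 0 and 1 (1 for H3). With H3 replicate 1 as the denominator of both replicates they were 1468 for H3K4me3, 4508 for H3K36me3 and 233 for H1. With 1 read per position H3K4me3 had 0. Leaving out each library in turn gave 4 to 10129 for H3K4me3, 2 to 210 for H3K36me3, 0 to 2 for H1, 0 to 10391 for H3 and 0 for H2A.Z. The cause was not tested.

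Replicate numbers were shared between genotypes. Correlations of same-numbered deviations were 0.0685 for H3K4me3, -0.0705 for H3K36me3, -0.115 for H2A.Z, -0.12 for H1 and -0.346 for H3. Same-numbered libraries thus did not deviate strongly in the same direction. For H3K4me3 and H2A.Z, replicate 2 of both genotypes also shared a file format without strand and organelle reads, and a shared batch was not tested. With the replicate block the counts were 274, 87, 0, 0 and 2 in that order. With the pairing crossed, added after seeing the data, they were 871, 22, 0, 0 and 10.

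The class difference of H3K36me3 in WT, 0.21 as reported, was 0.35 without H3, 0.40 with H3 replicate 1 as denominator, 0.55 with class means and 0.59 over the first 500 bp of the body. That of H2A.Z, -1.08 as reported, was -0.69 over the first 500 bp. That of H1, -0.42 as reported, was -0.27 without H3, where its sign differed between replicates. That of H3K4me3, 0.26 as reported, lay between 0.16 (1 read per position) and 0.51 (first 500 bp), and its value in WT replicate 2, 0.00 as reported, was -0.15 with 1 read per position and -0.14 without bases of other genes. Leaving out WT replicate 1 leaves WT replicate 2 as the lone WT library, assumed to vary as the others do. In that setting the H3K4me3 difference was 1.51 upstream of *ACT7*. Downstream it was 1.74 at *ACT7*, 1.38 at *ACT2*, 0.93 at *ACT11* and 0.75 at *ACT4*. The H3 difference was -1.47 upstream of *ACT7*, and -1.81 and -1.36 downstream of *ACT7* and *ACT2*. These windows are named because they passed the threshold in that setting. The share of all genes that did so is not given here, so they are not read as particular to the actins. With the crossed pairing, H3K4me3 downstream of *ACT2* and *ACT4* was called. Of the 120 values, 77 changed sign in at least 1 alternative. Flank windows of the members held as few as 12 reads (H3K36me3), which limits them more than the bodies, with at least 119.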
